A study of Mus musculus with 12 samples.

Results

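The genes described here encode the receptors that respond to glutamate, the transporters that load it into synaptic vesicles and the scaffold proteins that hold the receptors at the postsynaptic membrane. They were chosen by symbol as a list of 34 genes, and all 34 matched 1 Ensembl gene each among the 49548 genes counted in the lumbar spinal cord. The list holds 4 AMPA, 5 kainate and 7 NMDA receptor subunits, 1 delta receptor, 6 metabotropic receptors, 2 vesicular transporters and 9 postsynaptic scaffolds. RNA was sequenced from 8 MFN2 and 4 WT mice at 30 days of age, all untreated, with 1 library per mouse. MFN2 mice are MitoCharc1 animals of the strain B6;D2-Tg(Eno2-MFN2*R94Q)L51Ugfm (with the suffix /J of the Jackson Laboratory), a model of Charcot-Marie-Tooth disease type 2A. The human MFN2 transgene, hemizygous and with the R94Q mutation, is expressed chiefly in neurons from a rat Eno2 promoter. The mouse Mfn2 gene is intact on both alleles, so the mutant protein is added and does not replace the mouse protein. WT mice are labelled C57BL/6 and are described as littermates in the methods. The transgene itself was not analysed here, so the genotype labels were not checked against it.

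Glutamate is the main fast excitatory transmitter of the spinal cord, released there by sensory afferents, by descending fibres and by local excitatory neurons. AMPA and kainate receptors carry fast current, NMDA receptors open when glutamate binds while the membrane is depolarized, and metabotropic receptors signal through G proteins. The subunit encoded by Gria2 makes AMPA receptors nearly impermeable to calcium, and spinal motor neurons are known for their sensitivity to excess glutamate.

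Total counts ranged from 19359454 to 26738930 per library. Libraries are known by their numbers, 41 to 47 and 72 to 76. The first run of numbers holds 3 MFN2 mice (41, 42 and 43) and all 4 WT mice (44 to 47). The second holds 5 MFN2 mice (72 to 76) and 0 WT mice, so that genotype and run of numbers cannot be told apart in any comparison of those 5 mice with WT. MFN2 library 43 stood apart from the other 11 libraries. Summed levels of 12 forebrain markers were 2182 CPM (counts scaled to library size by the TMM method) in library 43, against 282 to 327 CPM in WT mice. The level of 8 caudal Hox genes, which mark the axial position of the cord, was 42.6 CPM in library 43 and 235 to 284 CPM in WT mice. Motor neuron markers summed to 38.6 CPM in library 43 and to between 195 and 417 CPM in WT mice. Library 43 therefore goes against its spinal cord label in these markers, and each comparison that includes it is given with and without it. MFN2 library 73 stood out in markers of Schwann cells of the nerve roots. These summed to 313 CPM there and to 293 CPM in library 43. In WT mice they summed to between 49.0 and 82.4 CPM, and in the remaining MFN2 mice to between 42.2 and 58.1 CPM. Library 73 was kept in the comparisons below.

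Promoter sequence is shown for the 2 members with the smallest adjusted p in the comparison that called most members, Gria2 and Grm3. Both are windows of 300 bases from RefSeq (GRCm38.p6), from 250 bases before the start of the transcript to 50 bases after it, both on the minus strand and written 5′ to 3′. The Gria2 window is chr3:80802786-80803085, and its capitals mark the core of RE1, the element bound by the neuronal repressor REST. The Grm3 window is chr5:9725303-9725602, and its capitals mark 2 adjacent GC boxes.
Gria2: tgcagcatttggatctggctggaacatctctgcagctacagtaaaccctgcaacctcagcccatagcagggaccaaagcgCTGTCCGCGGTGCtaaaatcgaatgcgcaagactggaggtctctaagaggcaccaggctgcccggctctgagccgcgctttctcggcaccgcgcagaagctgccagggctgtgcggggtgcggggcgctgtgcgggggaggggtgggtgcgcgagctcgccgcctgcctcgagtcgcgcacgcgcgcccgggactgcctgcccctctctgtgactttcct
Grm3: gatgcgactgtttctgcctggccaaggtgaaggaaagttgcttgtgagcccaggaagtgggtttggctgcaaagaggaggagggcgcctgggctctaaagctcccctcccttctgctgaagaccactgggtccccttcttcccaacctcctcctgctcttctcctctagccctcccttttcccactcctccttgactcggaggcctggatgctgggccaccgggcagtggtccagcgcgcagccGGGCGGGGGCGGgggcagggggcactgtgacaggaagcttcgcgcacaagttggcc
The RE1 core was searched on both strands as GCACC, any 2 bases and GGACAG, and it was found in 31 of 32851 promoter windows (0.0944%). Among the windows of the 23 members with a RefSeq promoter, only that of Gria2 held it, beginning 170 bases before the start. The GC box, searched as GGGCGG on both strands, was in 35.7% of all windows and in 15 of the 35 windows of the members (42.9%). The cyclic AMP response element, TGACGTCA, was in 1.79% of all windows and in 0 of the 35 windows of the members. These matches describe letters in the windows, and binding was not measured. The motifs do not overlap each other in the windows shown.

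Levels were first set in order in the WT mice, scaled to the length of the annotated exons and to the size of the library (RPKM), so that genes of different length can be compared. This scale needs reads from along the whole transcript. The study speaks both of sequencing mRNA ends and of total RNA sequencing, and coverage along the transcripts was not checked here. Slc17a6, which encodes VGLUT2, the vesicular glutamate transporter of most spinal excitatory neurons, stood highest at 34.2 ± 3.88 RPKM (SD, n = 4). The obligatory NMDA receptor subunit Grin1 followed at 33.1 ± 2.31 RPKM (SD, n = 4), and the AMPA receptor subunit Gria4 at 30.7 ± 1.65 RPKM (SD, n = 4). The scaffold Shank1 was at 29.2 ± 2.12 RPKM and Gria1 at 28.1 ± 9.15 RPKM (SD, n = 4 for both). These 5 genes could not be put in order beyond their spread, since each overlapped the next in its range over the WT mice. Of the 33 pairs of neighbours in the order, 30 overlapped in this way. The 3 breaks lay between Gria1 and Dlg4, between Grm3 and Grik5, and between Grm8 and Grm2. At the foot of the order were Grm2, a presynaptic receptor that lowers glutamate release, at 0.379 ± 0.0729 RPKM, and Slc17a8, which encodes VGLUT3, at 0.287 ± 0.0833 RPKM (SD, n = 4 for both).

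**Figure D1:**
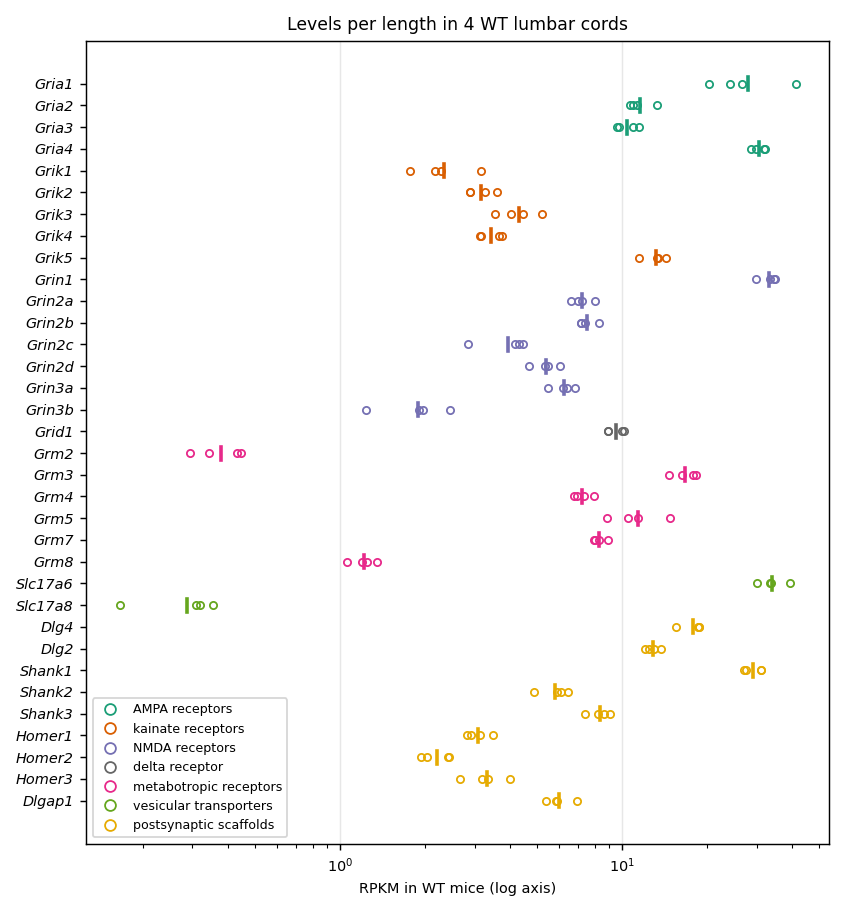
Levels per length of the 34 genes in the 4 WT mice, as RPKM on a log axis, with 1 circle per mouse, a bar at the mean and colours for the role of the gene. Slc17a6, Grin1, Gria4, Shank1 and Gria1 lie highest, and Grm2 and Slc17a8 lie below 1 RPKM.

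Shares within a family had a clear first member among kainate receptors and Shank scaffolds, while the first members of the other families overlapped in range over the WT mice. Gria4 made up 38.3 ± 3.88% of the summed AMPA receptor RPKM and Gria1 34.2 ± 6.40%, while Gria2 made up 14.3 ± 0.412% and Gria3 13.2 ± 2.33% (SD, n = 4). Among kainate receptors, Grik5, a subunit that needs another kainate subunit to form a channel, took 49.8 ± 2.92% of the sum (SD, n = 4). The GluN2 subunits of NMDA receptors were more even, with Grin2b at 31.2 ± 1.22%, Grin2a at 29.9 ± 1.46%, Grin2d at 22.3 ± 1.56% and Grin2c at 16.6 ± 3.59% (SD, n = 4). Grm3, a receptor of neurons and of astrocytes, took 37.2 ± 4.57% of the summed RPKM of the 6 metabotropic receptors listed (SD, n = 4). Shank1 took 67.4 ± 1.33% of the Shank sum (SD, n = 4). The order of levels depends on the length used. With the longest annotated transcript in place of all exons, Grin1 stood first at 75.1 RPKM, above Slc17a6 at 44.6 RPKM. Dlg4 then stood at 37.5, Dlgap1 at 15.0 and Homer1 at 6.47 RPKM, and Gria3 at 19.8 RPKM passed Gria2 at 17.3 RPKM. Of the 34 levels, 23 moved by more than the SD over the WT mice, and Spearman's rho between both scales was 0.962, a description across genes.

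The first comparison asked whether the genes differ between all 8 MFN2 and all 4 WT mice. No member passed the test. The 7 members with an unadjusted p under 0.05 were all higher in MFN2 mice. They were the metabotropic receptors Grm8, Grm7 and Grm5, the kainate receptors Grik1 and Grik3, and Grin1 and Gria2. Their log2 fold changes ran from 0.20 for Grm7 to 0.71 for Gria2, and Grik2, next in order of p, had 0.24. By the quasi-likelihood test of edgeR, adjusted after Benjamini and Hochberg, 0 of 34 members and 0 of 15942 genes tested (0%) had a false discovery rate (FDR) of 0.05 or less. An unadjusted p under 0.05 was reached by 2386 genes, or 15% of those tested, and 7.4% reached it with a higher level in MFN2 mice. With DESeq2, 200 genes and 2 members, Homer1 and Grm8, passed the same threshold.

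Among the members, 29 had a log2 fold change above 0 and 5 below 0, with a median of 0.32. The median over all genes tested was 0.0038, with 50.8% above 0. With the run of numbers as a term in the fit, the median of the members was 0.57 and 0 members passed. All WT mice are in the first run, so that value rests on libraries 41 to 43, which alone against WT gave a median of 0.59 with library 43 and 0.14 without it. Values ran from -0.74 for Grin3b, a glycine-binding NMDA receptor subunit, to 1.65 for Grm2. Levels of 2 members did not overlap between the genotypes, both higher in MFN2 mice, where 0.979% of all genes tested were higher without overlap.

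Grm8, a presynaptic receptor that lowers transmitter release, was one of these 2. Its levels were 12.3, 11.9, 13.4 and 10.5 CPM in WT mice 44 to 47. In MFN2 mice they were 14.4, 15.9 and 23.5 CPM in libraries 41 to 43, and 17.1, 16.0, 18.2, 16.2 and 15.0 CPM in libraries 72 to 76. All 8 MFN2 mice lay above the highest WT mouse, and library 43 was highest. The log2 fold change was 0.50 (standard error 0.12, FDR = 0.254 in edgeR's quasi-likelihood test). The other was Homer1, a scaffold that links group I metabotropic receptors to Shank proteins, which had a log2 fold change of 0.84 (standard error 0.46, FDR = 0.387 in the same test). Homer1 also makes a short form that lacks the linking domain, and counts per gene do not separate the forms.

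Without library 43, 0 of 34 members and 19 of 15835 genes (0.12%) passed, and the median log2 fold change of the members was 0.10. Grm8 then had a log2 fold change of 0.42 (FDR = 0.0705), Gria2 0.41 (FDR = 0.0748) and Homer1 0.28 (FDR = 0.0783) in edgeR's quasi-likelihood test. An unadjusted p under 0.05 was then reached by 13 members, 11 of them higher in MFN2 mice, against 21.2% of all genes tested in either direction and 10.7% higher. The members without overlap were still Grm8 and Homer1 alone, against 1.37% of the genes tested. Their place there was fixed beforehand, since all 8 MFN2 mice already lay above the WT mice.

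**Figure D2:**
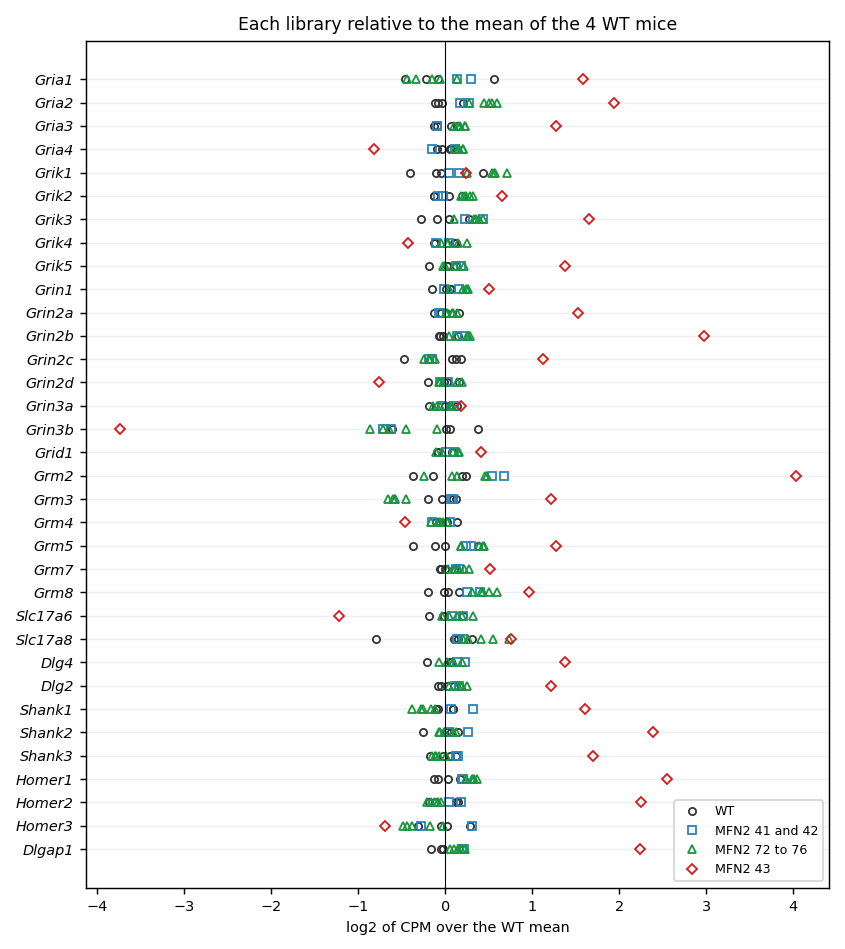
Level of each gene in each of the 12 libraries relative to the mean of the 4 WT mice, on a log2 scale of CPM, with circles for WT, squares for MFN2 41 and 42, triangles for MFN2 72 to 76 and diamonds for MFN2 43. The diamonds lie far from the other symbols for most genes, to the right for Grm2, Grin2b and Homer1 and to the left for Grin3b and Slc17a6.

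In library 43 itself, most receptor and scaffold genes were far above every other mouse, while a few were far below. Of the 34 members, 26 were highest there of all 12 libraries, 7 were lowest and 1, Grik1, was within the others. Over all genes tested, 25.9% were highest in this library and 28.7% lowest. At least 2-fold above the median of the other 7 MFN2 mice were 18 members, against 7.8% of genes tested. At least 2-fold below it were 2 members, Grin3b and Slc17a6, against 7.4% of genes tested. With 1 library there is no replicate check on these values.

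Grin2b, an NMDA receptor subunit known to be abundant in forebrain, was at 1464 CPM in library 43 and between 192 and 227 CPM in the other 7 MFN2 mice. The WT mice were at 207, 177, 183 and 178 CPM. The level in library 43 was 6.74 times the median of the other MFN2 mice. Grm2 reached 30.2 CPM there, 11.9 times that median. The scaffolds Shank2, Homer2, Homer1 and Dlgap1 were at 5.08, 5.06, 4.72 and 4.18 times it. Gria1 was at 511 CPM and Gria2 at 689 CPM in library 43, against WT ranges of 123 to 249 CPM and 165 to 207 CPM.

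The genes that lay lowest in library 43 were Gria4, Grik4, Grin2d, Grin3b, Grm4, Slc17a6 and Homer3. Slc17a6 measured 79.3 CPM there and between 162 and 230 CPM in the other 11 mice. Gria4 was at 110 CPM there and between 174 and 223 CPM elsewhere. Grin3b had 0.468 CPM in library 43, and no other mouse had less than 3.42 CPM. Grin3b shares 32.1% of its exon length with Tmem259 on the other strand, and the strand setting of the counting is not given, so its counts are uncertain.

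Family shares in this library also lay far from those of the other mice. Of the AMPA receptor RPKM, Gria1 took 49.3%, Gria2 25.9% and Gria4 10.1%. Of the GluN2 subunits, Grin2b took 64.5% and Grin2d 3.46%. The ratio of Grin2b to Grin2a counts was 3.94 in library 43, 1.44 ± 0.0374 (SD, n = 4) in WT mice and from 1.46 to 1.78 in the other MFN2 mice. Slc17a7, which encodes VGLUT1, the vesicular transporter of cortical excitatory neurons, stood at 1030 CPM in library 43 and averaged 5.81 CPM in WT mice. Of the 12 forebrain markers, 10 were highest in library 43. Its astrocyte markers summed to 1513 CPM and its oligodendrocyte markers to 8113 CPM, where the lowest WT sums were 4507 CPM and 23420 CPM. The part of these marker levels in the values of library 43 was not tested.

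**Figure D3:**
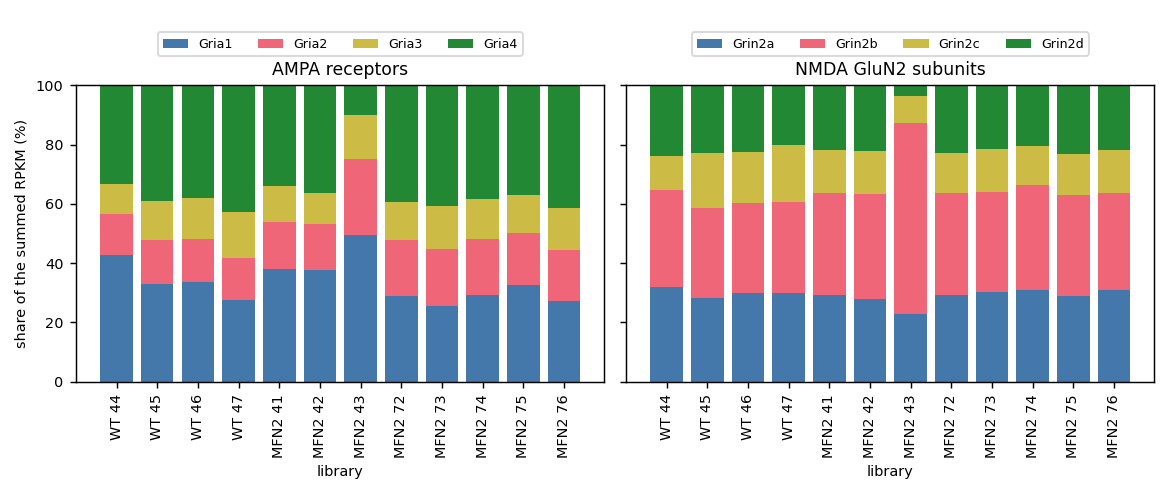
Share of each subunit in the summed RPKM of its family in each library, for AMPA receptors (left) and the GluN2 subunits of NMDA receptors (right), with each bar adding to 100%. Library 43 has the largest Gria1, Gria2 and Grin2b shares and the smallest Gria4 and Grin2d shares of the 12 mice.

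The second comparison set the 5 MFN2 mice of libraries 72 to 76 against the 4 WT mice, without library 43. Of the receptor subunits that form ion channels, 2 of 4 AMPA, 3 of 5 kainate and 2 of 7 NMDA genes rose and 0 fell. AMPA subunits Gria2 and Gria4, kainate subunits Grik1, Grik2 and Grik3, NMDA subunits Grin1 and Grin2b, the receptor Grm8 and the scaffolds Dlg2 and Homer1 rose. Grm3 and Shank1 fell. In total 12 of 34 members (35.3%) passed the FDR threshold of 0.05 in the adjusted quasi-likelihood test of edgeR, against 3746 of 15743 genes tested (23.8%). By direction, 10 members (29.4%) were higher against 11.1% of genes, and 2 members (5.88%) were lower against 12.7% of genes. The median log2 fold change of the members was 0.11, and that of all genes was -0.00066. All 34 members passed the filter on low counts in this fit.

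Grm3 had the smallest adjusted p of the members. Its levels were 44.6, 54.6, 49.7 and 55.8 CPM in the WT mice and 33.7, 32.5, 34.4, 34.2 and 37.5 CPM in libraries 72 to 76. All 5 MFN2 mice lay below the lowest WT mouse. Grm3 was 1.49-fold lower, a log2 fold change of -0.57 (standard error 0.07, FDR = 0.000394 in edgeR's quasi-likelihood test). MFN2 libraries 41 and 42 were at 54.3 and 53.7 CPM, inside the WT range. Its share of the metabotropic RPKM was between 24.3% and 29.0% in libraries 72 to 76 and between 31.4% and 42.1% in WT mice.

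Gria2 rose most clearly among the ionotropic receptors. Its levels were 207, 170, 176 and 165 CPM in the WT mice and 255, 245, 271, 260 and 217 CPM in libraries 72 to 76. The groups did not overlap. The log2 fold change was 0.47 (standard error 0.08, FDR = 0.00159 in edgeR's quasi-likelihood test). MFN2 libraries 41 and 42 were at 203 and 217 CPM, so that 42 lay above the WT mice and 41 among them. The share of Gria2 in the AMPA receptor RPKM was 13.8% to 14.9% in WT mice, 17.1% to 19.4% in libraries 72 to 76, and 16.1%, 15.3% and 25.9% in libraries 41, 42 and 43. All 8 MFN2 mice thus had a larger Gria2 share than any WT mouse. This share was singled out after its values were seen and was not tested.

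Gria4 was at 203, 181, 189 and 201 CPM in the WT mice and at 215, 209, 223, 222 and 214 CPM in libraries 72 to 76, again without overlap but by a small margin. MFN2 library 41 was at 174 CPM, below every WT mouse, and library 42 at 208 CPM, above them. Its log2 fold change was 0.16 (standard error 0.05, FDR = 0.0295 in edgeR's quasi-likelihood test). Gria3 missed the threshold, with a log2 fold change of 0.17 (FDR = 0.0547 in the same test). Gria1 varied most in WT mice, at 249, 146, 161 and 123 CPM, and its levels in libraries 72 to 76 lay between 125 and 186 CPM, within the WT range.

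Of the kainate receptors, Grik1 had the largest difference. It was at 21.3, 14.6, 15.3 and 11.9 CPM in the WT mice and at 23.5, 25.8, 23.0, 23.3 and 18.7 CPM in libraries 72 to 76. Library 76 lay among the WT mice and the other 4 above them. The log2 fold change of Grik1 was 0.53 (standard error 0.15, FDR = 0.0261). Grik3 and Grik2 followed with 0.33 (FDR = 0.0375) and 0.25 (FDR = 0.0235), all in edgeR's quasi-likelihood test. In libraries 41 and 42, Grik1 was at 16.3 and 17.5 CPM and Grik2 at 41.2 and 39.7 CPM, inside the WT range for both genes. Grik4 and Grik5, which cannot form channels alone, did not pass.

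Of the NMDA receptor genes, Grin1 had a log2 fold change of 0.20 (FDR = 0.0302) and Grin2b of 0.19 (FDR = 0.0463) in edgeR's quasi-likelihood test. The other 5 did not pass. Grin1 overlaps the antisense gene Grin1os over 13.5% of its exon length, so part of its counts may belong to that gene. Grin3b had a log2 fold change of -0.53 with an FDR of 0.070 in the same test. The delta receptor gene Grid1 and both vesicular transporters did not pass.

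Among the other metabotropic receptors and the scaffolds, Grm8 had a log2 fold change of 0.45 (standard error 0.09, FDR = 0.0036) and Homer1 of 0.31 (standard error 0.07, FDR = 0.00533) in edgeR's quasi-likelihood test. Homer1 was at 41.8, 33.7, 34.8 and 37.7 CPM in the WT mice and at 43.8, 46.2, 46.7, 47.7 and 45.8 CPM in libraries 72 to 76. Libraries 41 and 42 were at 42.7 and 42.4 CPM, also above every WT mouse. Shank1, which ties Homer and the Dlgap proteins together in the postsynaptic density, was at 326, 326, 290 and 285 CPM in the WT mice and at 283, 236, 253, 274 and 256 CPM in libraries 72 to 76. The highest of these 5 lay just under the lowest WT mouse. The log2 fold change of Shank1 was -0.24 (standard error 0.06, FDR = 0.0191 in the same test). Libraries 41 and 42 were at 321 and 384 CPM, the first inside the WT range and the second above it. Dlg2, which encodes PSD-93, had a log2 fold change of 0.17 (FDR = 0.0446), and the remaining 6 scaffolds, Dlg4 among them, did not pass. Over the 22 members that did not pass, 14 had a log2 fold change above 0 and 8 below 0, from -0.53 for Grin3b to 0.44 for Slc17a8.

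Without overlap between the groups, 4 members were higher (Gria2, Gria4, Grm8 and Homer1), against 9.43% of all genes tested, and 2 were lower (Grm3 and Shank1), against 10.2%. The number of members called depended on single mice. When each library was left out in turn, from 4 to 18 members passed. The lowest count, 4, was reached without WT 45 and without MFN2 74, and the highest without WT 44. Gria2, Grm8, Homer1 and Grm3 passed in all 9 of these fits.

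**Figure D4:**
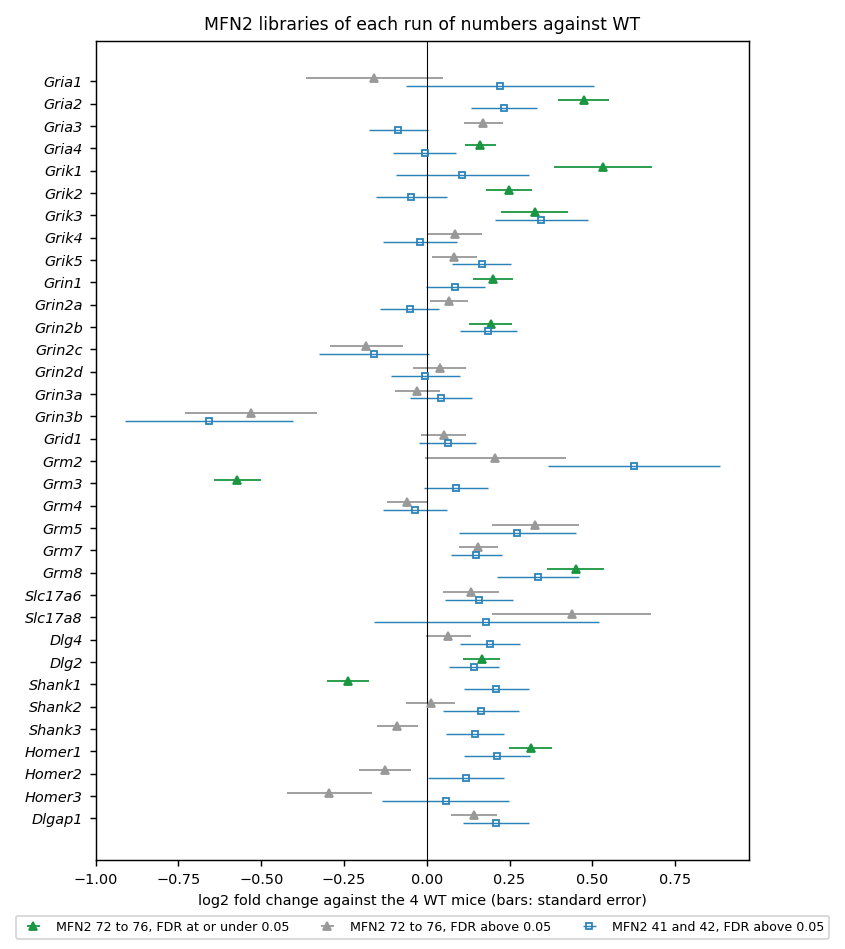
Log2 fold change against the 4 WT mice for MFN2 libraries 72 to 76 (triangles, green where the FDR was at or under 0.05) and for MFN2 libraries 41 and 42 (squares), with bars for the standard error. Grm3 and Shank1 lie to the left of 0 for libraries 72 to 76 only, while Gria2, Grm8 and Homer1 lie to the right of 0 for both. Both sets of values share the same WT mice.

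Markers of other cells differed in the same comparison. Of 6 astrocyte markers, 5 fell (Aldh1l1, Gja1, S100b, Aldoc and Gfap), and the list summed to between 2986 and 4230 CPM in libraries 72 to 76 and between 4507 and 5905 CPM in WT mice. Its most abundant gene in WT mice was Gfap. Libraries 41 and 42 summed to 6320 and 4003 CPM. Of 6 microglia markers, 5 fell (P2ry12, C1qa, Tmem119, Cx3cr1 and Csf1r), with sums of 79.8 to 103 CPM against 107 to 143 CPM in WT mice, and Csf1r as the most abundant gene. Among 8 general neuronal markers Syt1 and Nefm rose and Snap25 fell, while 0 of 7 motor neuron markers, 0 of 6 oligodendrocyte markers and 0 of 8 Hox genes passed. Single Hox genes still varied widely between mice. Hoxd10 was between 0.235 and 23.2 CPM in WT mice and between 7.48 and 29.15 CPM in libraries 72 to 76. It was at 1.865 and 31.5 CPM in libraries 41 and 42. Hoxc8 was between 10.15 and 69.07 CPM in WT mice and between 15.91 and 40.02 CPM in libraries 72 to 76. Whether the libraries match in axial level was not tested. The part of these cell markers in the values of the glutamate genes was not tested. In whole tissue, fewer cells of a type and less RNA per cell cannot be told apart.

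Other genes of the glutamate synapse, from a list of 46 of which 45 were tested, were read in the same fit. Of these, 13 rose and 5 fell, where 11.1% of all genes tested rose and 12.7% fell. Among 18 other postsynaptic density genes 9 rose and 0 fell, with a median log2 fold change of 0.21. Kalrn, an exchange factor for small GTPases in dendritic spines, was between 62.6 and 66.6 CPM in the WT mice and between 84.1 and 94.8 CPM in libraries 72 to 76, with 73.5 and 81.5 CPM in libraries 41 and 42. Its log2 fold change was 0.46 (FDR = 0.000169 in edgeR's quasi-likelihood test). Dlgap2, a partner of PSD-95 and Shank proteins, had 0.41 (FDR = 0.00144), and Nlgn3, a postsynaptic adhesion protein, 0.35 (FDR = 0.00458) in the same test.

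Of 9 genes that clear and recycle glutamate, 4 fell (Glul, Slc1a2, Slc38a1 and Slc38a3), against 12.7% of all genes tested. Slc1a1, a neuronal glutamate transporter, was the 1 gene of the 9 that rose, against 11.1%. Glul, the astrocytic glutamine synthetase, was at 701, 879, 899 and 914 CPM in the WT mice and at 515, 626, 641, 517 and 467 CPM in libraries 72 to 76. The groups did not overlap, while libraries 41 and 42 were at 882 and 870 CPM. The log2 fold change of Glul was -0.62 (FDR = 0.00299), and that of Slc1a2, the main astrocytic glutamate transporter, was -0.16 (FDR = 0.0336), both in edgeR's quasi-likelihood test. Of 15 auxiliary subunits of receptors, Shisa7, Cacng4 and Cacng5 rose and Cacng7 fell.

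The third comparison set MFN2 libraries 41 to 43 against the WT mice, which share their run of numbers. No member passed, and 13 had an unadjusted p under 0.05, all higher in MFN2 mice. By edgeR's quasi-likelihood test, 0 of 34 members and 1 of 15200 genes tested (0.00658%) had an FDR of 0.05 or less, and the lowest FDR of a member was 0.622. Over all genes tested, 7.12% reached an unadjusted p under 0.05, 5.18% with a higher level, and DESeq2 called 5 genes and 0 members. The median log2 fold change of the members was 0.59, and the largest was 2.72, for Grm2. Next in order of p came Grm8 with 0.59, Grik3 with 0.94, Grin2b with 1.79, Homer1 with 1.47, Gria2 with 1.07, Dlgap1 with 1.26 and Grm7 with 0.29.

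Without library 43, with 2 MFN2 mice left, 0 members and 1 gene (0.00667%) passed and the median was 0.14. The members with an unadjusted p under 0.05 fell from 13, all higher, to 5, of which 4 were higher, against 5.72% of all genes tested in either direction and 3.37% higher. The largest log2 fold change was then 0.63, for Grm2, and those of Grm8, Gria2 and Homer1 were 0.33, 0.23 and 0.21, with FDRs of 0.862 or more in edgeR's quasi-likelihood test. Levels of 8 members, Grik5, Grm2, Grm7, Grm8, Dlg4, Dlg2, Shank3 and Homer1, were higher in all 3 mice than in any WT mouse (4.53% of all genes tested). Only Grin3b was lower in all 3 (4.28%).

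The fourth comparison set the MFN2 mice of both runs against each other, libraries 72 to 76 against 41 to 43, where genotype is the same. With library 43 included, 0 members and 342 of 15633 genes (2.19%) passed, and 13 members had an unadjusted p under 0.05, against 24.6% of genes. Grm3 came closest, with a log2 fold change of -1.17 (FDR = 0.0577), followed by Shank1 with -1.10 (FDR = 0.0975) in edgeR's quasi-likelihood test. Next came Grm2 with -2.53, Grik1 with 0.37, Gria1 with -1.02, Homer2 with -1.37, Shank3 with -0.98 and Shank2 with -1.34. DESeq2 called 1795 genes and 6 members, Grm3, Shank1, Homer2, Gria1 and Shank3 lower and Grik1 higher.

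Without library 43, 7 of 34 members (20.6%) and 2375 of 15509 genes (15.3%) passed in the quasi-likelihood test of edgeR. The median log2 fold change of the members went from -0.42 with library 43 to -0.00052 without it, with 17 members above 0 and 17 below. The sign turned for 13 members, among them Gria3, from -0.38 to 0.26, and Gria2, from -0.60 to 0.24. By direction, 3 members were higher, against 7.34% of genes, and 4 lower, against 7.98%. Lower in libraries 72 to 76 were Grm3 at -0.66 (FDR = 0.000576), Shank1 at -0.44 (FDR = 0.00745), Shank3 at -0.23 (FDR = 0.0287) and Homer2 at -0.24 (FDR = 0.0477), as log2 fold changes. Higher were Grik2 at 0.30 (FDR = 0.0135), Gria3 at 0.26 (FDR = 0.0139) and Grik1 at 0.43 (FDR = 0.0293). Against the WT mice, the log2 fold changes of libraries 72 to 76 were -0.57 for Grm3, -0.24 for Shank1, 0.53 for Grik1 and 0.25 for Grik2. Both comparisons use the same 5 libraries, so their directions are not independent.

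Not called were Gria2 at 0.24 (FDR = 0.0693), Homer1 at 0.10 (FDR = 0.272) and Grm8 at 0.12 (FDR = 0.454) in edgeR's quasi-likelihood test, with only 2 mice, 41 and 42, on the other side. Without overlap between the groups, 8 members were higher in libraries 72 to 76 (Gria2, Gria3, Gria4, Grik1, Grik2, Grin2a, Slc17a8 and Homer1), against 17.9% of all genes tested, and 5 were lower (Grm2, Grm3, Shank1, Shank3 and Homer2), against 16.4%. Homer1 lay between 43.8 and 47.7 CPM in libraries 72 to 76 and at 42.7 and 42.4 CPM in libraries 41 and 42. Gria2 lay between 217.2 and 271 CPM in libraries 72 to 76 and at 202 and 216.8 CPM in libraries 41 and 42. With library 43 included, 2 members were higher without overlap (Gria4 and Grik1), against 9.62% of genes, and the same 5 were lower, against 8.59%.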

How the data were processed

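RNA from the lumbar spinal cord of 8 MFN2 and 4 WT mice was sequenced in paired-end mode with a stranded kit. Per the submitters' processing notes and the study's methods, the authors converted reads with bcl2fastq, aligned them to GRCm38.p6 with STAR and used edgeR. The deposited values are raw whole-number counts for each Ensembl gene, with 1 library per mouse. The counting tool, its strand setting and its annotation release are not given in the sources used here, so counts of overlapping and antisense genes are uncertain. P-values weigh each difference against the spread between these mice, and they do not separate genotype from run of numbers.

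Symbols, positions and exon lengths were taken from GENCODE M21, and promoters from RefSeq. Genes above 1 CPM in at least 3 libraries were scaled by TMM and tested over the whole table with edgeR 4.0.16 in R 4.3.3 (quasi-likelihood F test, earlier form, robust, Benjamini-Hochberg, FDR 0.05), and DESeq2 1.42.0 as an alternative. Each comparison was filtered and fitted on its own libraries. CPM levels were counts divided by the total count of the library times its TMM factor. RPKM used the union of annotated exons. Standard errors came from the F statistic. Total counts were 19359454 to 26738930 per library. Between any 2 libraries of the same genotype, at least 26360 genes had different counts. The fits were tested on simulated data with the same spread for all genes, no outlying library and no difference between runs of numbers. That test therefore does not cover those features of the real libraries.

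The members, the lists of other genes and markers, the motifs, the comparisons by run of numbers and the alternatives were chosen with earlier results of these data known. The text names every member past the FDR threshold in a comparison, or the 8 members with the lowest p where fewer than 8 passed. Genes of other lists are named where the text gives their calls, and some genes are not reported here one by one. Values named otherwise, including those of library 43 and the Gria2 share, were chosen after they were seen. Alternatives were no filter, a filter in all libraries, library size alone, DESeq2, the current edgeR form, run of numbers as a term, another length, and each library left out in turn. The count of fits without 1 library in which each member passed was added after the data were seen.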

Additional observations from a re-analysis of the deposited data

Results flagged for a closer look

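Within each genotype, the gap of the highest or lowest mouse to its neighbour was divided by the range of the group, for each of the 34 genes and for the summed level of each marker list. A ratio above the critical value of Dixon's test for 8 MFN2 or 4 WT mice marked a mouse far from the others. Of 94 such groups, 33 were marked, where chance marks about 1 in 20, or 4.7. Library 43 was the far mouse in 32 of the 33. A gap to the nearest neighbour cannot mark a far mouse that has another beside it. The sum of root Schwann cell markers, high in both library 73 and library 43, was therefore not marked.

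Library 43 was the high mouse for 22 members. Among AMPA receptors the ratio was 0.786 for Gria1, 0.859 for Gria2 and 0.842 for Gria3, and among kainate receptors 0.864 for Grik3 and 0.891 for Grik5. Among NMDA receptors it was 0.921 for Grin2a, 0.973 for Grin2b and 0.941 for Grin2c. It was 0.545 for Grid1, 0.951 for Grm2, 0.749 for Grm3, 0.820 for Grm5, 0.544 for Grm7 and 0.579 for Grm8. Among scaffolds it was 0.867 for Dlg4, 0.878 for Dlg2, 0.787 for Shank1, 0.941 for Shank2, 0.912 for Shank3, 0.970 for Homer1, 0.931 for Homer2 and 0.963 for Dlgap1.

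Library 43 was the low mouse for 5 members, with a ratio of 0.569 for Gria4, 0.656 for Grin2d, 0.548 for Grin3b, 0.539 for Grm4 and 0.672 for Slc17a6. In the marker lists it was high for forebrain (0.975), cerebellum (0.869) and dorsal horn neurons (0.912), and low for caudal Hox genes (0.836) and inhibitory neurons (0.682). The cerebellum sum in library 43 was 106 CPM, of which Calb1, also a forebrain gene, was 96.9 CPM against 21.9 to 39.3 CPM in the other 11 libraries. Fat2 was also highest there, at 1.26 CPM against at most 0.401 CPM elsewhere, as was Car8, at 7.49 CPM against at most 7.23 CPM. The granule cell marker Gabra6 was at 0 counts in library 43 and in 9 of the other 11. The 1 mark in WT mice was Dlg4, low in library 47 with a ratio of 0.941, at 205 CPM against 247 to 249 CPM in the other 3.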

How the results depend on the processing

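Leaving out library 43 turned the sign of 7 of the 34 members in MFN2 against WT, of 6 in libraries 41 to 43 against WT and of 13 in libraries 72 to 76 against 41 to 43. Of these, Gria3 and Grik2 in the last comparison passed the threshold without it, and none passed with it. The median of the members in libraries 72 to 76 against 41 to 43 moved close to 0, from -0.42 to -0.00052, without library 43. With another length, 23 of 34 levels moved by more than the SD over the WT mice, and 28 of the recomputed counts of genes or members moved by over 1.5 times while 86 did not. Of the recomputed gene results, 457 kept their side of the threshold, 43 lost it and 12 gained it. With DESeq2, MFN2 against WT gave 200 genes and 2 members, libraries 41 to 43 against WT gave 5 genes, and libraries 72 to 76 against 41 to 43 gave 1795 genes and 6 members. With no filter, libraries 41 to 43 against WT gave 0 genes. Leaving out 1 library at a time gave 0 to 19 genes for MFN2 against WT, the highest without library 43, and 0 to 2 genes for libraries 41 to 43 against WT. For libraries 72 to 76 against WT it gave 2350 to 4517 genes and 4 to 18 members. The members numbered 6 without WT 46 or MFN2 75 and 7 without MFN2 72. For libraries 72 to 76 against 41 to 43 it gave 31 to 2375 genes and 0 to 7 members, the highest of both without library 43 and the lowest number of genes without MFN2 74. The cause of these changes was not tested. Among single genes in libraries 72 to 76 against WT, Dlg2 (FDR 0.0826) and Gria4 (FDR 0.0931) did not pass without a filter, and Shank1 (FDR 0.0772) did not pass when scaled by library size alone. No paired analysis was possible because no library number occurs in both genotypes. At these depths, genes near 1 CPM, such as Grm2 and Slc17a8, rest on few counts.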

Other observations

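Within the WT mice, library 47 was lowest of the 4 for 19 of the 34 genes and highest for 5, and library 44 was highest for 18 and lowest for 8. Gria1 and Grik1 had their highest WT level in library 44 and their lowest in library 47. In the same mice the motor neuron markers summed to 195 CPM in library 44 and 417 CPM in library 47, and the dorsal horn markers to 105 CPM and 57.8 CPM.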
